A study of Mus musculus with 6 samples.

Results

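The genes described here are 3 ligands of the bone morphogenetic protein (Bmp) pathway, Bmp4, Bmp6 and Bmp7, and 2 families of genes that Bmp signalling is known to switch on, Msx1, Msx2 and Msx3, and Id1, Id2, Id3 and Id4. All probe sets that the platform annotation gives to 1 of these symbols were taken, 18 probe sets for 10 genes out of 34958 single-symbol probe sets for 18194 genes. A probe set is a group of short oligonucleotides on the array that together measure 1 transcript or a group of transcripts. The Bmp ligands have 5 probe sets, the Msx genes 5 and the Id genes 8.

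Total RNA came from mouse embryos lacking both Fezf1 and Fezf2 (Fezf1-/- Fezf2-/-, below the knockout) and from wild-type embryos, at embryonic day 9.5 (E9.5), E10.5 and E12.5. The tissue was forebrain cut by hand at the rear limit of the lateral ventricle, and each of the 6 combinations of genotype and age was measured on 1 array. The number of embryos behind an array, and whether they were littermates, is not given in the sources used here. Fezf1 and Fezf2 encode zinc-finger repressors of the early forebrain.

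The deposited signals had not been brought to a common level: array medians ran from 14.2 to 37.1. They were quantile-normalized, and every level below is a normalized signal on a linear scale unless it is called deposited, while every difference is on the log2(signal + 6.50) scale, where 1 is 2-fold. Before normalization the median difference over the 19593 probe sets tested below was 0.08, 0.26 and 0.21 from the youngest to the oldest pair of arrays. The knockout was the higher, so genotype differences of that size depend on the scaling. Fezf2 read 0.458, 0.904 and 1.66 on the knockout arrays from the youngest to the oldest, against 78.9, 146 and 249 on the wild-type arrays. Fezf1 read 97.7, 78.4 and 49.5 on the knockout arrays, against 251, 143 and 174 on the wild-type arrays, lower at every age but still above the array median of 24.01. Whether either probe set lies inside a deleted part is not given in the sources used here. Of 9 measured forebrain neuroepithelium markers, Six3 read 133 to 211 over the 6 arrays and Sox2 1538 to 2995. Others of that list varied more: Lhx2, Emx1 and Emx2 were past 2-fold lower in the knockout at E10.5. These levels are no test of where the tissue was cut.

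Bmps are secreted dimers of the TGF-beta superfamily that bind pairs of type I and type II receptor kinases, which phosphorylate Smad1, Smad5 and Smad9; these join Smad4 and enter the nucleus. In the early forebrain, Bmps from the dorsal midline and the neighbouring ectoderm are known to pattern the dorsal telencephalon. Msx genes encode homeodomain repressors, and Id genes encode helix-loop-helix proteins without a DNA-binding domain, which hold back bHLH factors that drive neurons to form.

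Age, far more than genotype, separated the arrays for these genes. Each age has 1 array of each genotype, so the p-values for age also measure only the spread between these arrays. Age cannot be told apart from anything else that the arrays of an age shared. Bmp4, Bmp7, Msx2, Id1, Id3 and the brightest probe sets of Msx1 and Id2 were lower at E12.5 than at E9.5 after adjustment (Id1 under 1 of the 3 scalings tried), and Id4 was higher at all 3 of its probe sets. Msx1, Msx2, Id1 and Id3 had first risen at E10.5. For no member was a genotype difference across the ages past the threshold. At E10.5 the 3 Id4 probe sets, from 263 to 914 on the knockout array, were about 1 log2 unit below the wild-type array, and at E9.5 and E12.5 they lay within 0.31 of it.

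**Figure D1:**
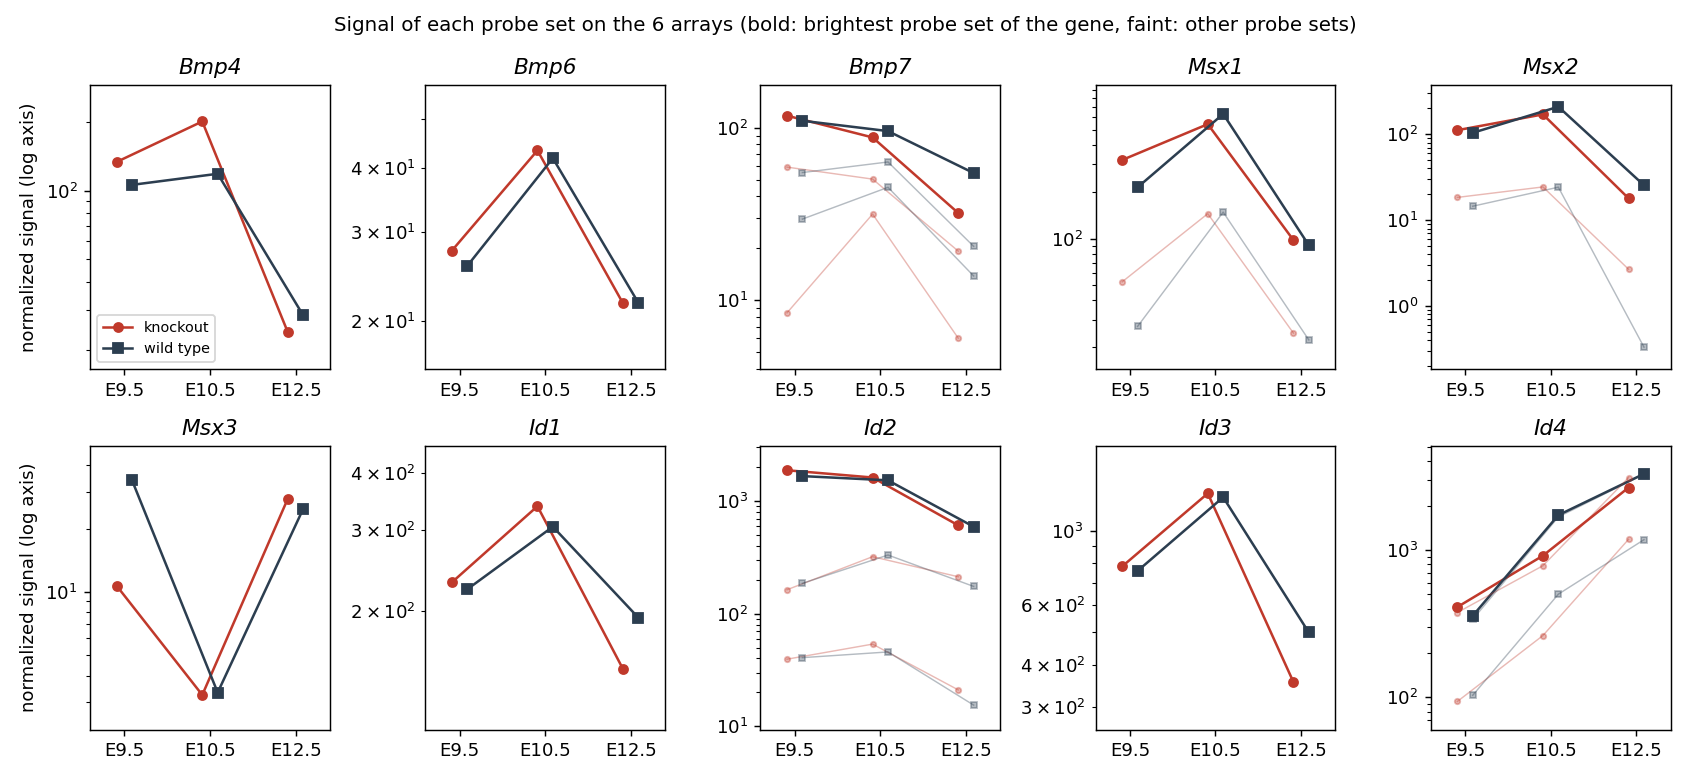
Normalized signal (log axis) of the brightest (bold) and the other (faint) probe sets of each gene by embryonic age, 1 point an array, in the knockout and the wild type. Id4 climbed to 2647 in the knockout and 3279 in the wild type at E12.5, while Bmp4, Bmp7, Msx1, Msx2 and Id3 were lowest at that age in both genotypes.

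Among the ligands, Bmp4, a dorsalizing signal of the roof plate and the facial ectoderm, had signals of 134, 201 and 23.9 on the knockout arrays at E9.5, at E10.5 and then E12.5, against 106, 119 and 28.4 on the wild-type arrays. Both E12.5 arrays lay far below all 4 younger ones, and the knockout was the higher genotype at the 2 earlier ages only. Bmp4 fell by 1.95 ± 0.22 between E9.5 and E12.5 (SE; limma, adjusted p = 5.45e-05) and differed by -2.31 ± 0.22 between E10.5 and E12.5 (adjusted p = 4.12e-05). Between E9.5 and E10.5 its difference was 0.36 ± 0.22 (adjusted p = 0.252).

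The genotypes differed for Bmp4 by 0.32 on the E9.5 arrays, by 0.73 at E10.5 and by -0.20 at E12.5, with a mean over ages of 0.28 ± 0.18 (limma, adjusted p = 0.9999). The E10.5 value is the highest of any tested member at that age. In the deposited values it was wider, 156 on the knockout array against 73.1 on the wild-type array, a difference of 1.03. The median of all tested probe sets itself stood 0.26 higher in the knockout there.

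Bmp7, which is active in the dorsal midline, the ectoderm and the head mesenchyme, had signals of 117, 87.9 and 32.0 on the knockout arrays, against 109.8, 95.6 and 54.6 on the wild-type arrays, at its brightest probe set. The 2 E12.5 arrays were the lowest, and the knockout one was the lower of them. The decrease between E9.5 and E12.5 was -1.31 ± 0.21 (limma, adjusted p = 0.000505). Taken within each genotype, with 1 array at each end, it was -1.69 in the knockout and -0.93 in the wild type; 1 array a group allows no test of that gap.

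A second Bmp7 probe set had 59.1, 50.3 and 19.2 in the knockout, against 54.9, 63.3 and 20.5 in the wild type. It moved with age like the first, by -1.27 ± 0.23 between E9.5 and E12.5 (limma, adjusted p = 0.00106), but at E12.5 its genotypes were closer, -0.07 against -0.67 at the brightest. The dimmest, below the filter on dim probe sets, read 8.42, 31.5 and 6.001 in the knockout and 29.5, 45.1 and 13.8 in the wild type. It was lower in the knockout at all 3 ages and past 2-fold at E9.5, at -1.27, where the 2 brighter probe sets of the gene stood at 0.09 each.

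Bmp6, a close relative of Bmp7, was dim, with 27.5, 43.4 and 21.7 in the knockout and 25.7, 41.9 and 21.7 in the wild type. The genotypes almost coincided at each age, with a mean difference of 0.04 ± 0.21. Both E10.5 arrays were the highest, and Bmp6 fell by 0.80 ± 0.26 between E10.5 and E12.5 (limma, adjusted p = 0.0282). That decrease depends on the scaling: in the deposited values the difference was 0.20, which is -0.64 relative to the median of all tested probe sets, and with a common trimmed mean it was -0.51 and not past the threshold; with no filter on dim probe sets the adjusted p was 0.0810.

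Msx1, a homeodomain repressor of the roof plate, the cranial neural crest and the facial primordia, had signals of 319.6, 543 and 97.8 on the knockout arrays, against 213, 631 and 90.6 on the wild-type arrays, at its brightest probe set. The 3 ages did not overlap: both E10.5 arrays were the highest and both E12.5 arrays the lowest. Msx1 was 1.15 ± 0.17 higher at E10.5 than at E9.5 (limma, adjusted p = 0.00142) and fell by 2.56 ± 0.17 between E10.5 and E12.5 (adjusted p = 6.05e-06).

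At E9.5 the knockout array was the higher for Msx1, by 0.57 at the brightest probe set and by 0.81 at the second, which read 52.7 in the knockout and 27.2 in the wild type. At E10.5 the differences were -0.21 and -0.03, and at E12.5 they were 0.10 and 0.11. The mean over ages of the brightest was 0.15 ± 0.14 (limma, adjusted p = 0.9999), and without the E9.5 pair it was -0.06. The second probe set rose by 1.77 ± 0.25 between E9.5 and E10.5 (adjusted p = 0.00101) and fell by 2.35 ± 0.25 after that (adjusted p = 6.41e-05).

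Msx2, which is expressed with Msx1 in much of the dorsal midline and facial ectoderm, had signals of 112, 171 and 18.0 on the knockout arrays, against 104, 209.6 and 25.5 on the wild-type arrays. Its levels followed the same order of ages as Msx1 in both genotypes. Msx2 rose by 0.77 ± 0.19 between E9.5 and E10.5 (limma, adjusted p = 0.0134) and fell by 2.80 ± 0.19 between E10.5 and E12.5 (adjusted p = 6.05e-06). Without scaling the rise was 0.46, or 0.86 relative to the median of all tested probe sets, and did not pass. Between the genotypes Msx2 differed by 0.10, -0.29 and -0.39 at the 3 ages.

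A second Msx2 probe set lay below the filter, at 18.4, 24.4 and 2.68 in the knockout and 14.5, 24.2 and 0.332 in the wild type, also lowest at E12.5. Msx3, known in the mouse from the dorsal neural tube behind the forebrain, has 1 probe set, likewise below the filter. It read 10.7, 3.23 and 27.8 in the knockout and 33.9, 3.32 and 24.9 in the wild type. Its E9.5 difference of -1.23 rests on signals around the array median of 24.01, and at E10.5 both genotypes were near the bottom of the scale.

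The Id genes split by age. Promoter sequence from RefSeq (GRCm38.p6) was at hand for 8 of the 10 genes, and 3 Id promoters are printed because these genes moved in opposite directions: Id2 (brightest probe set) and Id3 downward, Id4 upward. Each runs 5′ to 3′ over the 250 bases before the transcription start, at chr12:25096093-25096342 on the minus strand for Id2, chr4:136143572-136143821 on the plus strand for Id3 and chr13:48260866-48261115 on the plus strand for Id4. Capitals mark matches to 2 motifs of Bmp-responsive Smads, GGCGCC, which reads the same on both strands, and CAGAC, whose other strand reads GTCTG.
Id2: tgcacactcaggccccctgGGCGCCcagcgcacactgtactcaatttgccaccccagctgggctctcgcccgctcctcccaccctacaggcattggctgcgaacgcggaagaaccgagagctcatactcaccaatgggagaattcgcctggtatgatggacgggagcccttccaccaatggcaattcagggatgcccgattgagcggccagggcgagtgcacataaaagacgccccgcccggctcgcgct
Id3: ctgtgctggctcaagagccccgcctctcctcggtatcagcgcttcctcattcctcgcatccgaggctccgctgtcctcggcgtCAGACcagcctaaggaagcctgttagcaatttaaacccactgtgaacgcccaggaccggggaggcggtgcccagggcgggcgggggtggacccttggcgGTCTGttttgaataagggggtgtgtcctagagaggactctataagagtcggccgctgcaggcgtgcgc
Id4: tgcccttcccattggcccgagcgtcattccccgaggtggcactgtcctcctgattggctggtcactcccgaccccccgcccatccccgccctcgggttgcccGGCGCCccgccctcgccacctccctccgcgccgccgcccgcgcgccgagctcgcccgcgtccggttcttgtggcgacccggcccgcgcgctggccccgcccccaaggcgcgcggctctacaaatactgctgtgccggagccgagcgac

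GGCGCC occurs in the Id2 window 231 to 226 bases before the start and in the Id4 window 148 to 143 bases before it. Id3 holds CAGAC 167 to 163 bases before its start and GTCTG 68 to 64 bases before it. Of the 8 promoters, 2 hold GGCGCC and 3 hold CAGAC on either strand, and among 32851 promoters of the same length these matches occur in 9.59% and 42.2%. The E-box CANNTG, the letters bound by bHLH factors, occurs in 5 of the 8, including Id2 but neither Id3 nor Id4, and in 66.2% of all promoters. No match of 1 motif overlapped a match of another in the 3 printed windows. Such matches describe the letters of these windows and are not evidence of binding.

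Id4, which in the mouse is known from dividing cells of the cortical ventricular zone, gave the widest range of any member. Its brightest probe set read 410 on the knockout array and 357 on the wild-type array at E9.5, 914 and 1721 at E10.5, and 2647 and 3279 at E12.5. The ages were ordered alike in both genotypes without overlap. Between E9.5 and E12.5 it rose by 2.92 ± 0.19, or 7.59-fold (limma, adjusted p = 2.06e-06), and the other 2 probe sets rose 8.76-fold and 11.3-fold.

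At E10.5 Id4 stood lower in the knockout at all 3 probe sets, by -0.91, -1.09 and -0.92. The second had 782 in the knockout and 1673 in the wild type, a 2.13-fold gap past the 2-fold mark, and the third had 263 and 501. Within the knockout, the E10.5 array stood 1.15, 1.04 and 1.42 above the E9.5 array at the 3 probe sets, and within the wild type 2.25, 2.28 and 2.21. The 3 probe sets share their arrays and are not replicates, so this gap between genotypes has 1 array on each side and no test.

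By E12.5 the Id4 genotypes were 0.31, 0.08 and less than 0.02 apart, with 3092 in the knockout against 3259 in the wild type at the second probe set and 1179 against 1173 at the third. The genotype difference over all ages was -0.34 ± 0.16 at the brightest (limma, adjusted p = 0.9999). Leaving out the E9.5 pair made it -0.61 (limma, adjusted p = 0.0276). That was 1 of 15 member probe sets past the threshold, against 17 of all 19593 tested, so the other Id4 probe sets did not pass. For no other member did leaving out a pair bring the genotype difference past the threshold. In the deposited values the second probe set read 651 in the knockout and 1161 in the wild type at E10.5, short of 2-fold.

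Id3, a direct Bmp target in several tissues, had signals of 784, 1293 and 355 on the knockout arrays, against 760.01, 1259 and 499 on the wild-type arrays. The genotypes were 0.04 apart at E9.5 and at E10.5 and -0.48 apart at E12.5. Id3 rose by 0.72 ± 0.13 between E9.5 and E10.5 (limma, adjusted p = 0.00347) and fell by 1.59 ± 0.13 between E10.5 and E12.5 (adjusted p = 1.67e-05). The rise was 0.31 in the deposited values, or 0.70 relative to the median, and did not pass there, nor without limma's trend (adjusted p = 0.0525). Between the E9.5 and E12.5 arrays the difference was -1.13 in the knockout and -0.60 in the wild type.

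Id1, often read out together with Id3 as a Bmp response gene, had signals of 231, 338 and 149.6 in the knockout, against 223, 305 and 193 in the wild type. Its order of ages was that of Id3 and Msx1, over a narrower range. Id1 rose by 0.49 ± 0.15 between E9.5 and E10.5 (limma, adjusted p = 0.0310) and fell by 0.89 ± 0.15 after that (adjusted p = 0.000830). In the deposited values these differences were 0.11 and 0.06, neither past the threshold, which relative to the median of all tested probe sets are 0.50 and -0.79. The rise was also lost with no filter on dim probe sets (adjusted p = 0.0588) and without limma's trend (adjusted p = 0.0969). Its difference between E9.5 and E12.5 was -0.40 ± 0.15 (adjusted p = 0.0364), but 0.16 in the deposited values and -0.26 with a trimmed mean, neither past the threshold, and it was lost with no filter and without the trend as well. At E12.5 the knockout differed by -0.36, the same sign as Id3 at that age.

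Id2 is known from the dorsal midline, the neural crest and later cortical neurons. Its brightest probe set had 1877, 1618 and 609 in the knockout, against 1666, 1528 and 592 in the wild type. After normalization it was the only tested member probe set higher in the knockout at all 3 ages, though by 0.17, 0.08 and 0.04. In the deposited values Bmp6 and each Msx1 probe set were also higher in the knockout at all 3 ages. The brightest Id2 probe set fell by 1.55 ± 0.08 between E9.5 and E12.5 (limma, adjusted p = 5.94e-07).

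The other Id2 probe sets did not follow the first in full. The second had 163, 321 and 213 in the knockout and 186, 332 and 175 in the wild type, highest at E10.5, with a rise of 0.88 ± 0.14 after E9.5 (limma, adjusted p = 0.00202) where the first had -0.17 ± 0.08 (adjusted p = 0.140). In the deposited signals the first did pass, at -0.61, which is -0.22 relative to the median of all tested probe sets. The third had 39.4, 53.7 and 21.1 in the knockout and 40.7, 45.7 and 15.4 in the wild type, and fell by 0.92 ± 0.25 between E9.5 and E12.5 (adjusted p = 0.0100). Which Id2 transcripts each probe set reads was not tested.

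Counted together, 15 of the 18 member probe sets passed the filter on dim signals. Between E9.5 and E10.5, 9 of the 15 rose and 0 fell, where 16.2% of all 19593 tested probe sets rose and 13.6% fell. Between E9.5 and E12.5, 3 rose, all of Id4, and 9 fell, where 26.3% of all rose and 32.9% fell. Between E10.5 and E12.5 the same 3 rose and the other 12 fell, where 19.6% of all rose and 27.5% fell.

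The median member difference was 0.72 between E9.5 and E10.5, against -0.01 over all tested probe sets, and -0.86 between E9.5 and E12.5, against -0.09. Between E10.5 and E12.5 it was -1.19, against -0.10. Probe sets of 1 gene read the same RNA, so the 15 stand for 9 genes and are not independent. In the deposited values 6 members rose and 2 fell between E9.5 and E10.5, where 6.17% of all tested probe sets rose and 42.8% fell. Between E9.5 and E12.5 these were 4 and 7 members, where 51.4% of all rose and 12.5% fell. Between E10.5 and E12.5 they were 3 and 6, where 76.5% of all rose and 3.15% fell.

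**Figure D2:**
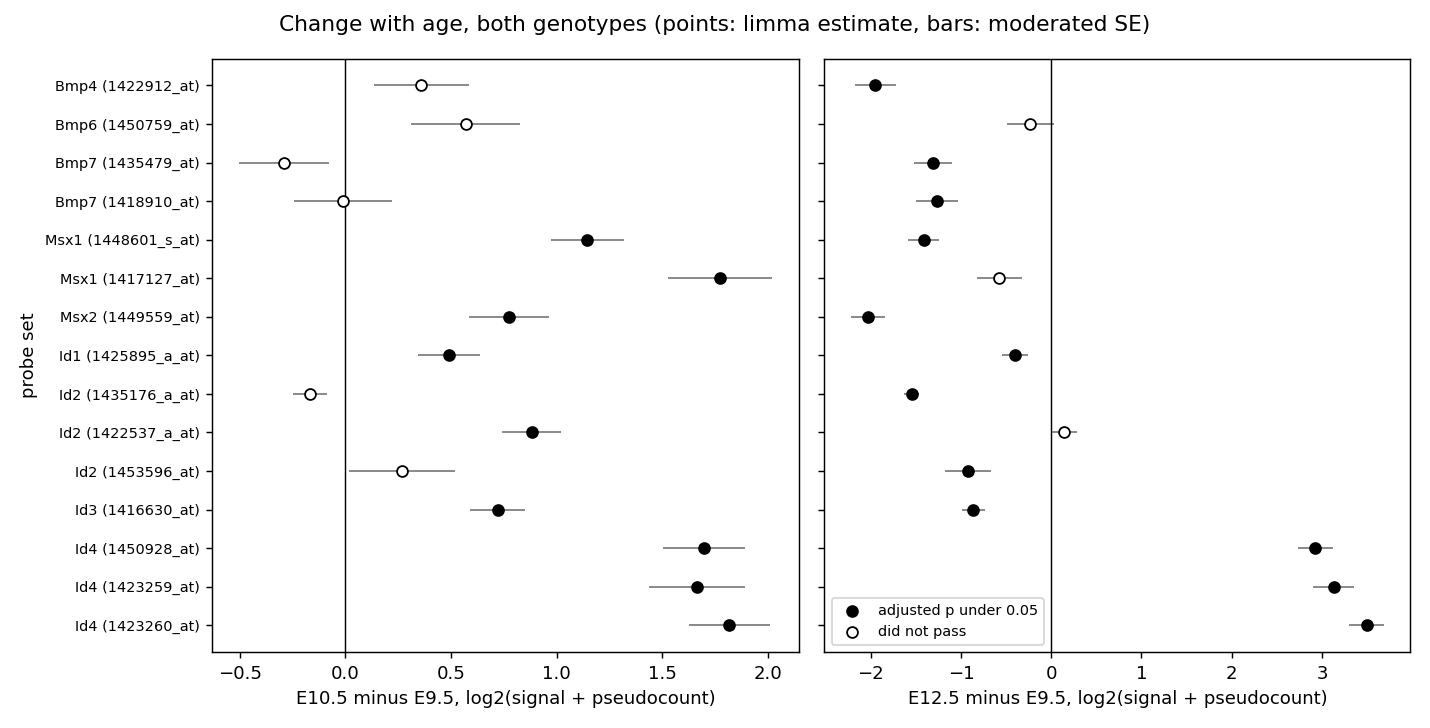
Differences between ages on the log2(signal + 6.50) scale for the tested member probe sets, with limma's standard error as bars, for E10.5 minus E9.5 (left) and E12.5 minus E9.5 (right). The 3 Id4 probe sets lie at 2.92 to 3.49 on the right, and Msx2 has the lowest value there, at -2.03.

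For genotype, 0 of the 15 tested members passed, against 0.0306% of all tested probe sets (6, of which 1 was higher and 5 lower in the knockout). Members had adjusted p = 0.9999 throughout by limma; 0 had an unadjusted p under 0.05, where 881 of all tested probe sets did, and the smallest unadjusted p of a member was 0.0514. The median member difference was -0.05, against 0.01 over all tested probe sets. With 1 array for each genotype at an age, a difference confined to 1 age counts as error in this fit, and the p-values measure only the spread between these arrays.

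Read age by age, the 2-fold mark with the brighter signal above 24.01 was passed by 2 of 18 members at E9.5, where 1.77% of all single-symbol probe sets passed, and both, the dimmest Bmp7 probe set and Msx3, were dim. At E10.5 it was 1 of 18, the second Id4 probe set, against 2.24%. At E12.5 it was 0 of 18, against 0.544%. Over the 15 tested members the differences ran from -0.18 to 0.81 at E9.5, from -1.09 to 0.73 at E10.5 and from -0.67 to 0.33 at E12.5. Differences within 0.5 made up 13, 11 and 14 of the 15, where 89.9%, 89.1% and 93.3% of all tested probe sets were that close.

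**Figure D3:**
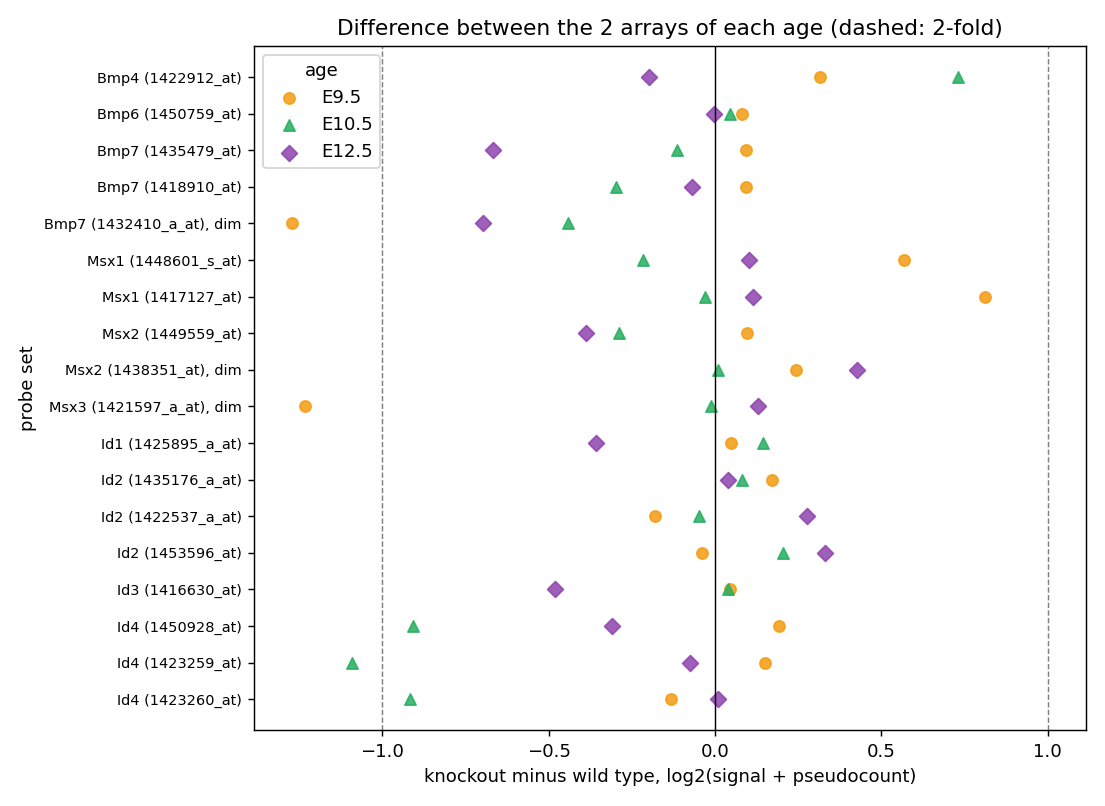
Knockout minus wild type on the log2(signal + 6.50) scale for the member probe sets, with a colour for each age, 1 pair of arrays a point. The Id4 probe sets at E10.5 stand lowest among the tested members, at -0.91 to -1.09, with Bmp4 the highest at that age, at 0.73.

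Other genes of the pathway were taken from a list of 49, of which 44 have a single-symbol probe set, each by its brightest. Of the ligands, 2 of 11 could be tested and both fell between E9.5 and E12.5: Bmp2, a close relative of Bmp4, by 1.85 ± 0.39 (limma, adjusted p = 0.00230) and Bmp5, a relative of Bmp7, by 1.66 ± 0.20 (adjusted p = 7.43e-05). Of all tested probe sets 32.9% fell and 26.3% rose between these ages. Bmp2 read 40.6, 38.6 and 6.57 in the knockout and 101, 27.9 and 23.2 in the wild type. It was past 2-fold lower in the knockout at E9.5, at -1.19, as was the dim Gdf10, at -1.90.

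Of 8 receptors and co-receptors tested, 5 rose and 1 fell between E9.5 and E12.5, where 26.3% of all tested probe sets rose and 32.9% fell. The type II receptor Bmpr2 had 527, 578 and 972 in the knockout and 397, 622 and 1046 in the wild type, a rise of 1.13 ± 0.13 (limma, adjusted p = 5.34e-05). Acvr2a and Acvr2b, also type II receptors, rose by 0.89 and 1.01, the co-receptor Rgmb by 1.87 and the type I receptor Bmpr1b by 0.59. The type I receptor Bmpr1a fell by 0.47. In the deposited values its difference was -0.18 and did not pass, which is -0.66 relative to the median of all tested probe sets. With either other scaling, 7 of the 8 rose, where 51.4% of all tested probe sets rose as deposited and 32.1% with a trimmed mean.

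Of 6 secreted inhibitors and modulators tested, 2 fell and 1 rose between E9.5 and E12.5, where 32.9% of all tested probe sets fell and 26.3% rose. As deposited 2 fell and 3 rose, where 12.5% of all fell and 51.4% rose. After normalization the values were as follows. Sostdc1 fell by 1.59 and Chrdl1 by 1.45, both of which bind Bmps outside the cell. The protease Bmp1, which is no Bmp ligand and cleaves the Bmp antagonist chordin, rose by 0.93. Chrd itself was dim, at 28.5 in the knockout and 9.001 in the wild type at E9.5, the only pathway gene past the 2-fold mark and higher in the knockout there.

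Inside the cell, 3 of 10 tested genes rose and 4 fell between E9.5 and E12.5, near the 26.3% and 32.9% of all tested probe sets. With a trimmed mean 3 rose and 6 fell, where 32.1% of all rose and 26.7% fell. As deposited 3 rose and 1 fell, where 51.4% of all rose and 12.5% fell. The inhibitory Smad6, itself a Bmp target, had 121, 132 and 29.9 in the knockout and 119.7, 155 and 40.02 in the wild type. It fell by 1.62 ± 0.17 between E9.5 and E12.5 (limma, adjusted p = 3.47e-05), and Bambi, a decoy receptor that Bmps also induce, fell by 0.86 ± 0.17 (adjusted p = 0.00148). Ski and Smurf2, which restrain Smads, fell by 0.52 and 0.41, while Smad5 rose by 0.98, the Smad-binding repressor Zeb2 by 0.72 and the ubiquitin ligase Smurf1 by 0.60. With the deposited signals, Ski stood at 0.061, Smurf2 at 0.025 and Bambi at -0.12, none past the threshold. Relative to the median of all tested probe sets these are -0.42, -0.46 and -0.60.

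Of the 3 bHLH partners that Id proteins bind, Tcf3 and Tcf4 rose between E9.5 and E12.5, by 1.27 and 1.58. Of all tested probe sets 26.3% rose and 32.9% fell between these ages, or 51.4% and 12.5% as deposited. Tcf12 differed by 0.12 (limma, adjusted p = 0.163) and by -0.18 with a trimmed mean. In the deposited values Tcf12 differed by 0.26 and passed (limma, adjusted p = 0.0455), which is -0.22 relative to the median of all tested probe sets. For genotype across ages, 0 genes of any of these 5 lists passed the test. No pathway gene was past the 2-fold mark, with a brighter signal above 24.01, at E10.5 or E12.5.

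**Figure D4:**
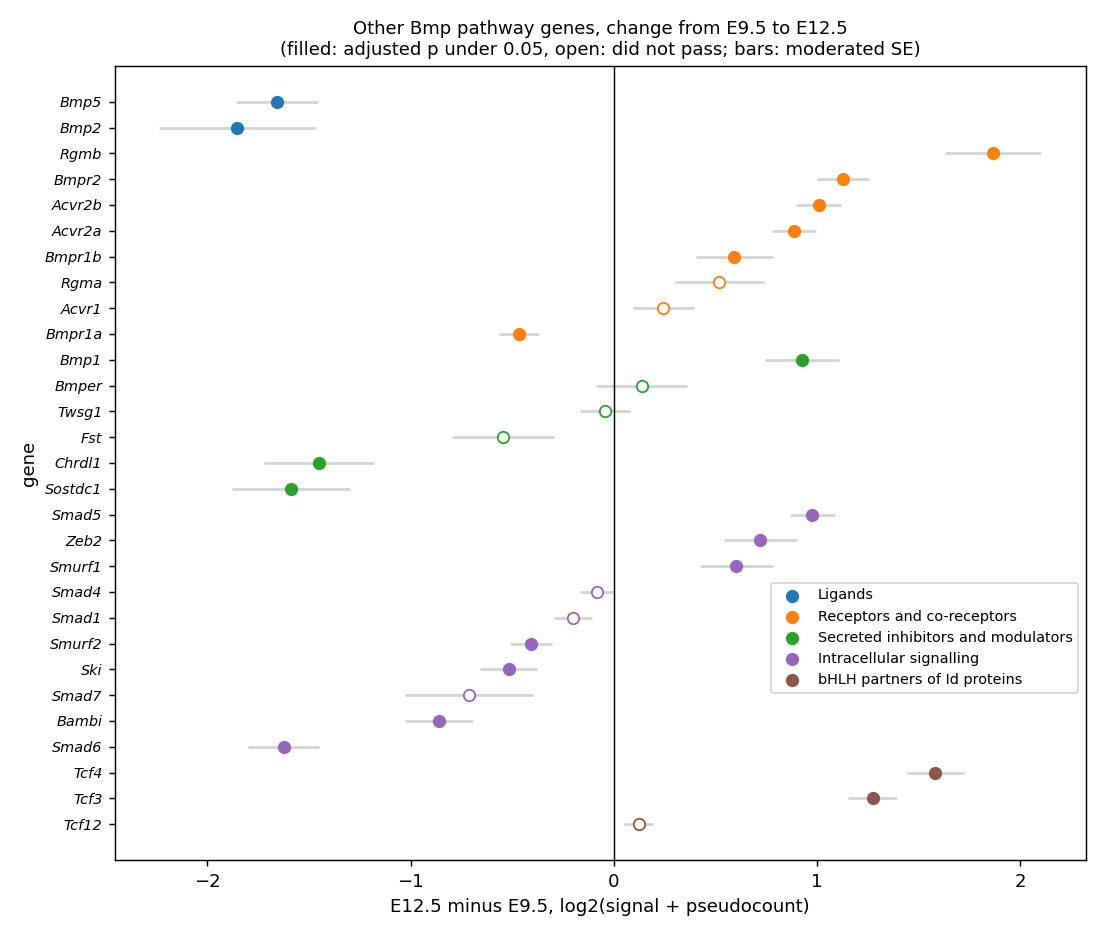
Difference between E12.5 and E9.5 on the log2(signal + 6.50) scale for each tested gene of the Bmp pathway list, by role, with limma's standard error as bars and filled points for genes past the threshold. Both ligands lie below 0, while 5 of the 8 receptors and co-receptors lie above 0 and past the threshold.

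Dissected forebrain holds several cell types, and fewer cells of a type cannot be told apart from less RNA per cell. Bmp4, Bmp7, Msx1, Msx2 and Id genes are also known to be expressed in head mesenchyme and neural crest. Markers of those cells fell at 12 of 14 tested genes and rose at 0 between E9.5 and E12.5, with a median of -2.48. Of all tested probe sets 32.9% fell and 26.3% rose, with a median of -0.09. Twist1, which marks that mesenchyme, read 488, 464 and 8.29 in the knockout and 406, 361 and 18.6 in the wild type. The summed signal of the 15 measured markers was 6392, 6729 and 1513 in the knockout, against 4826, 6436 and 2203 in the wild type.

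Between genotypes, 12 of the 14 tested genes of that list were higher in the knockout at E9.5, with a median of 0.35. Brightest probe sets of the members known from those cells differed at E9.5 by 0.32 (Bmp4), 0.09 (Bmp7), 0.57 (Msx1) and 0.10 (Msx2). The Id genes differed there by 0.05 (Id1), 0.17 (Id2), 0.04 (Id3) and 0.19 (Id4). Their other tested probe sets differed by 0.09 for Bmp7, 0.81 for Msx1, -0.18 and -0.04 for Id2, and 0.15 and -0.13 for Id4. At E10.5, 9 of 14 were higher, with a median of 0.08. At E12.5, 2 of 14 were higher, with a median of -0.55. The brightest probe sets of the members differed there by -0.20 (Bmp4), -0.67 (Bmp7), 0.10 (Msx1) and -0.39 (Msx2). The Id genes differed by -0.36 (Id1), 0.04 (Id2), -0.48 (Id3) and -0.31 (Id4). The other tested probe sets differed by -0.07 for Bmp7, 0.11 for Msx1, 0.28 and 0.33 for Id2, and -0.08 and 0.01 for Id4. No gene of the list passed the genotype test across ages, and single ages have no test. Surface ectoderm markers fell at 6 of 8 tested genes and rose at 1 between E9.5 and E12.5, where 32.9% of all tested probe sets fell and 26.3% rose. Their sums were 1682, 1701 and 344 in the knockout and 1465, 1451 and 401 in the wild type. The part of either cell type in the member differences was not tested.

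Endothelial markers fell at 4 of 10 genes and rose at 1 between E9.5 and E12.5, and erythroid markers fell at 3 of 4, where 32.9% of all tested probe sets fell and 26.3% rose. Markers of the dorsal midline, cortical hem and choroid plexus fell at 4 of 9 and rose at 1, Ttr. Taken as deposited, the endothelial and the midline list each had 3 genes that rose and 1 that fell, where 51.4% of all tested probe sets rose and 12.5% fell. For the midline list, medians between genotypes were -0.10, -0.39 and -0.37, and the sums were 1209.9, 1018 and 1124 in the knockout against 1318, 1391 and 3801 in the wild type, where Ttr alone gave 314 in the knockout and 2661 in the wild type at E12.5.

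Beside the Id4 values, forebrain neuroepithelium markers rose at 5 of 9 genes and fell at 0 between E9.5 and E12.5. Of all tested probe sets 26.3% rose and 32.9% fell. Their genotype median at E10.5 was -0.43, with Lhx2, Emx1 and Emx2 past 2-fold lower in the knockout. At E9.5 that median was -0.19 and at E12.5 it was 0.02. Lhx2, a cortical selector gene, read 364 in the knockout and 766 in the wild type at E10.5, and 1074 in the knockout and 1217 in the wild type at E12.5. Young-neuron markers rose at all 7 genes with age. At E10.5, 0 of 7 were higher in the knockout, with a median of -0.80. At E9.5 it was 6 of 7, with a median of 0.43, and at E12.5 4 of 7, with a median of 0.01. Their part in the lower Id4 of the E10.5 knockout array was not tested.

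**Figure D5:**
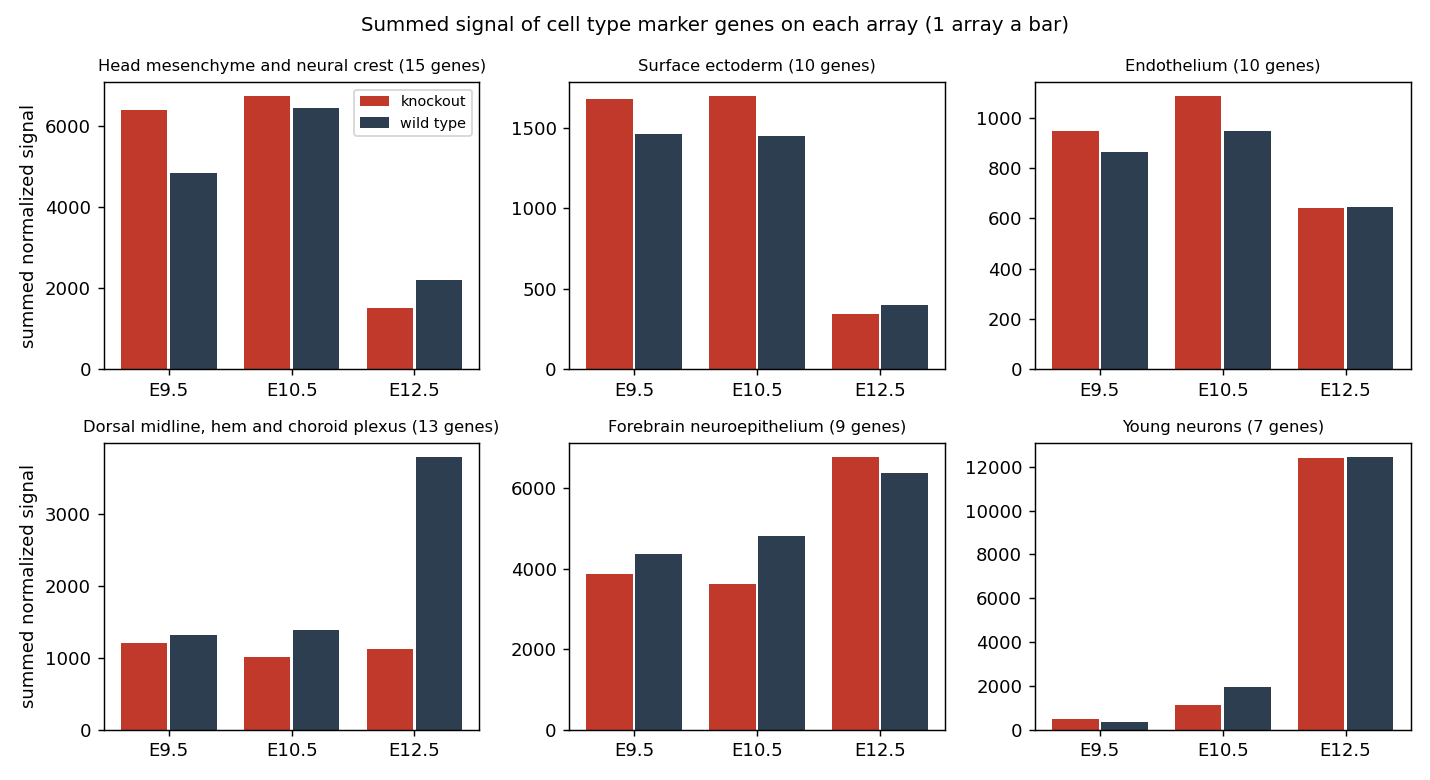
Summed normalized signal of the measured marker genes of 6 cell types on each of the 6 arrays, knockout left of wild type at each age, 1 array a bar. Head mesenchyme and surface ectoderm sums are lowest at E12.5 in both genotypes, and the young-neuron sum is highest there.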

How the data were processed

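Genotype and age in the labels put each sample in its group, 1 array for each of 6 groups. The file holds linear intensity values per probe set that the authors deposited, made with MAS5 as the submitters' processing notes say. Version, scaling target and detection calls are not given there, so background correction could not be redone. The arrays' number limits the precision. Values were quantile-normalized and converted to log2(signal + 6.50), where 6.50 is the lower quartile of the deposited signals. This understates changes of dim genes. Symbols came from the platform annotation supplied with the table, and all 18 member probe sets matched RefSeq (GRCm38.p6) by Entrez identifier. The 19593 probe sets with a mean log2 value above the median were tested with limma 3.58.1 in R 4.3.3 (lmFit, eBayes with a trend), genotype and age in 1 model of all 6 arrays, with 2 residual degrees of freedom (9.72 after moderation). Benjamini-Hochberg adjustment ran over all tested probe sets, with a threshold of 0.05. Single ages have no test: a difference of at least 2-fold with the brighter signal above 24.01 was counted. All single-symbol probe sets of the 10 genes are described; of the pathway list, those past the test or the 2-fold mark are named. The members and lists were chosen with earlier results of these data known. The scripts were tested on simulated data. Alternatives were other scalings, pseudocounts, filters, models and leaving out each pair of arrays.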

Additional observations from a re-analysis of the deposited data

How the results depend on the processing

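Of 342 values of single members under an alternative, 316 kept their direction and their side of the threshold. Many of these could not change direction. The estimate is the same by construction with no filter, on the brightest probe set, without the trend and without the other factor in the model. The same holds for an age difference when the pair of the third age is left out. Only the adjusted p could change in these settings. The labels give no replicate numbers that groups share, and the reported genotype fit already pairs the arrays of an age. With values as deposited, which puts the median of all tested probe sets at 0.18 for genotype, -0.39 for E10.5 minus E9.5, 0.48 for E12.5 minus E9.5 and 0.84 for E12.5 minus E10.5, these turned sign: the genotype difference of Id1 (0.16) and Id3 (0.11), E12.5 minus E9.5 of Bmp6 (0.34) and Id1 (0.16), and E12.5 minus E10.5 of Bmp6 (0.20), Bmp7 (0.050) and Id1 (0.056). Relative to that median these are -0.03, -0.08, -0.15, -0.32, -0.64, -0.79 and -0.79. Genotype differences also turned for Bmp6 with a trimmed mean (-0.015) and when 1 pair of arrays was left out, over which Msx1 ran from -0.056 (without E9.5) to 0.34, Id1 from -0.15 to 0.10 (without E12.5) and Id3 from -0.22 to 0.041 (without E12.5).

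Genotype calls over all tested probe sets, 6 as reported, were 16 as deposited (10 higher, 6 lower), 3 with a pseudocount of 1, 10 with 24, 2 with no filter, 1 without a trend and 0 without age in the limma model (36 at an unadjusted p under 0.05), and 3 to 17 leaving out 1 pair; members called ranged from 0 to 1. Calls for E10.5 minus E9.5, 5843 as reported, were 9582 as deposited, 3183 without a trend and 3178 on the brightest probe set of each gene (5 of 9 members). For E12.5 minus E9.5, 11606 became 6960 on the brightest (8 of 9 members). For E12.5 minus E10.5, 9238 became 15577 as deposited (9 members) and 5564 on the brightest (9 of 9 members). The run on the brightest tested 11097 probe sets in place of 19593, so its counts cannot be set directly against those reported. It called 28.6%, 62.7% and 50.1% of them in the 3 age comparisons. As reported, 16.2%, 26.3% and 19.6% of all tested probe sets were called higher, and 13.6%, 32.9% and 27.5% lower. The share of calls that were higher was 54.3%, 44.5% and 41.7% in these 3 comparisons, 12.6%, 80.4% and 96.0% as deposited, and 54.6% with a trimmed mean for E12.5 minus E9.5.

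Probe sets past 2-fold at E9.5, 618 as reported (2 members), were 929 with a pseudocount of 1, 127 with 24 (0 members), 295 on the brightest (1 member) and 1976 at 1.5-fold (3 members). At E10.5, 784 (1 member) became 327 as deposited, where that member was Bmp4, 136 with a pseudocount of 24, 348 on the brightest (0 members) and 2424 at 1.5-fold (4 members). At E12.5, 190 (0 members) became 678 as deposited, 296 with a trimmed mean, 306 with a pseudocount of 1, 47 with 24, 101 on the brightest and 989 at 1.5-fold (1 member). On the brightest, 18194 probe sets were counted in place of 34958. The shares past 2-fold there were 1.62%, 1.91% and 0.555% from the youngest to the oldest age, against 1.77%, 2.24% and 0.544% as reported. A lower fold mark or a smaller pseudocount raises the count by definition, and a larger pseudocount lowers it. The cause of the other changes was not tested. With 1 array a group, no difference at a single age has a replicate check.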

Other observations

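For the 3 members whose brightest probe set ranged most widely over the 6 arrays, the most similar profiles among 10774 tested genes were found by Pearson's r over the 6 arrays, as a description. Id4 was closest to Grcc10, Rab10 and Hsbp1, at r of 0.999, 0.998 and 0.997. Msx2 was closest to Rnf150, Cdc42ep5 and Six2, each at 0.999. Bmp4 was closest to Mtres1, at 0.999, and to Gnpnat1 and Rbms2, each at 0.997. The arrays are shared by all these profiles, and ones this close were common: 447 genes had r above 0.95 with Id4, 428 with Msx2 and 502 with Bmp4.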
